A study of Mus musculus with 3 samples.

Results

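The genes described here are 10 muscle transcripts. Their proteins sit at the Z-disc, on the elastic part of titin or, for Xirp1 and Xirp2, at the intercalated disc. The genes are Ankrd1, Ankrd2, Ankrd23, Csrp3, Fhl1, Myot, Myoz2, Xirp1, Xirp2 and Flnc. They were taken by gene symbol from a fixed list of names, and all 10 have a row in each of the 3 deposited tables, out of 15503 genes listed in any of them. The list was drawn up with the differences between these libraries already known, so the values that follow are a description and carry no test.

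The Z-disc is the plate of cross-linked actin that bounds each sarcomere, and titin is the giant elastic protein that spans from the Z-disc to the middle of the sarcomere. Proteins held at both places are stretched with every beat, and several of them can also enter the nucleus, which is why they are regarded as links between mechanical load and gene expression in heart muscle. Ankrd1 in particular is widely used as a marker of haemodynamic load on the ventricle.

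Left ventricles of C57BL6J mice of 3 genotypes were used, and RNA of 3 mice was pooled into 1 library per genotype. One library is labelled Egln1/Hif2aTie2Cre, that is, deletion of both Egln1 and Hif2a with Cre under the Tie2 promoter. The Egln1Tie2Cre library carries deletion of Egln1 with the same Cre, and the control is an Egln1 floxed library, which the series' own design text calls wild type. Egln1 encodes the oxygen sensor PHD2, Hif2a is the protein of Epas1, and the Tie2 promoter is active in endothelial and blood-forming cells, so the deletion is aimed at cells other than the cardiomyocytes that make the proteins above. The labels name neither the age nor the sex of the mice. The study's title asks about hypertrophy and fibrosis of the heart after loss of endothelial PHD2.

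Levels are FPKM, the authors' estimate of fragments per unit of transcript length and of mapped fragments, which can be set side by side between genes within a library. With 1 library per genotype there is no replicate error for any value, and sequencing depth is unknown. The targeted genes do not settle the labels. Egln1 was at 129.0 FPKM in the library labelled Egln1/Hif2aTie2Cre, 95.7 FPKM in Egln1Tie2Cre and 129.5 FPKM in the floxed library, so the first was not below floxed. Epas1 was lowest in the library labelled Egln1/Hif2aTie2Cre, at 54.5 FPKM, beside 65.0 FPKM in Egln1Tie2Cre and 77.4 FPKM in the floxed library. Whole-ventricle RNA also comes from cells that the Cre is not aimed at, so these levels can neither bear out nor contradict the label Egln1/Hif2aTie2Cre. The library labelled Egln1/Hif2aTie2Cre is therefore called the Egln1/Hif2a-labelled library, and every direction given for it rests on its label. The summed FPKM of 13 of 14 cardiomyocyte markers was 71770 in the Egln1/Hif2a-labelled library, 74454 in Egln1Tie2Cre and 62842 in the floxed library. Ryr2 was left out, as it had no listed value in Egln1Tie2Cre. It was at 85.8 FPKM in the Egln1/Hif2a-labelled library and 145 FPKM in the floxed library. Of the 13 markers, 7 were higher and 6 lower in Egln1Tie2Cre than in floxed. Without Myl2, the largest of them, the sum was 56559 in the Egln1/Hif2a-labelled library, 54572 in Egln1Tie2Cre and 51850 in the floxed library. In whole-ventricle RNA, fewer cells of a type and less RNA per cell cannot be told apart.

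Promoter sequences are shown first, for Ankrd1 and Ankrd23, which differed most between libraries among the genes with a window and a mean above 1 FPKM, for Xirp2, which differed less, and for Myoz2, which was nearly even. Windows of 300 bases, 250 before and 50 after an annotated start, were taken from RefSeq on GRCm38.p6 for 8 of the 10 genes (all but Myot and Xirp1), in 12 windows. Capitals mark every match, on either strand, to CATTCC (the MCAT element bound by TEAD factors), a loose pattern for the MEF2 site (CTA, then 4 bases of any kind, then TAG), AGATAA (read by GATA factors), ACGTG (the core of a hypoxia response element) or the CArG box bound by SRF. A match on the opposite strand appears as its reverse complement, and no matches overlapped.
Ankrd1, chr19:36119795-36120094, minus strand: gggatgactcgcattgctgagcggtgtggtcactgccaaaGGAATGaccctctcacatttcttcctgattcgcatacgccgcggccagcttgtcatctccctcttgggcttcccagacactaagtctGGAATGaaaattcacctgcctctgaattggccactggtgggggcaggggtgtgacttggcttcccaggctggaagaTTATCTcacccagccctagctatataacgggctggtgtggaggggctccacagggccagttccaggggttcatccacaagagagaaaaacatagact
Ankrd23 (first of its annotated starts), chr1:36536507-36536806, minus strand: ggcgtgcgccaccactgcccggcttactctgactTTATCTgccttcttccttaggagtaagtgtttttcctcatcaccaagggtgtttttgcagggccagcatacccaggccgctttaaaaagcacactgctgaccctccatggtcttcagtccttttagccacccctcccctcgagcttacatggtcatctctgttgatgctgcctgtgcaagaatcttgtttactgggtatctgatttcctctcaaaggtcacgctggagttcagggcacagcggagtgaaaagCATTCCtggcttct
Xirp2, chr2:67445752-67446051, plus strand: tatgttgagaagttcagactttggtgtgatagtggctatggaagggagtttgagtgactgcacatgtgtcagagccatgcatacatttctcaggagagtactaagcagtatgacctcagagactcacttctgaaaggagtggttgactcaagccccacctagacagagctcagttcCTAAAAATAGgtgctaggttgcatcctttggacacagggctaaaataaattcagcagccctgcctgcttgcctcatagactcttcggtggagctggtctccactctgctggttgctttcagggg
Myoz2, chr3:123034938-123035237, minus strand: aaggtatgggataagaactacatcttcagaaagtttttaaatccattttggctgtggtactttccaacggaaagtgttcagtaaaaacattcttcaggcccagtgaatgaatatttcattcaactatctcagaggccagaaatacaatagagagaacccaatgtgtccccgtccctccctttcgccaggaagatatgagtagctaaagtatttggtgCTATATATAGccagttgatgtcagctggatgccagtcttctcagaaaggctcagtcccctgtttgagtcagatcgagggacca

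Matches to CATTCC lay in windows of 3 of the 8 genes, Ankrd1, Ankrd23 and Flnc. That is 5 of the 12 windows, with the overlapping Flnc windows sharing a site, beside 14.7% of all 32851 promoter windows. The Ankrd1 window held a pair of them, with first bases at positions -210 and -123 from the start, and an AGATAA match at -47. Ankrd23 had a CATTCC match in the window of each of its annotated starts, at 37 in the first and -120 in the second. Matches to the loose MEF2 pattern lay in Flnc, Myoz2 and Xirp2, again 3 of 8 genes and 3 of the 12 windows, beside 3.7% of all windows. The 4 free bases were all A or T in Myoz2 and Xirp2 but AGAC in Flnc, so the Flnc match is to the loose pattern only. In Myoz2 the match stood at -33 and in Xirp2 at -74. The hypoxia response element core was found in Flnc only, at the same genomic site in both of its overlapping windows. That is 2 of the 12 windows, while 19.6% of all windows hold it. AGATAA was found in windows of Ankrd1 and Ankrd23 (2 of the 12 windows, beside 11.2% of all windows). A CArG box was found in Fhl1 (1 of the 12 windows, beside 1.6% of all windows). The windows of Csrp3 and Ankrd2 held no match to any of the 5 motifs. These matches describe letters in a short window and show neither binding nor a cause of any difference in level.

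**Figure D1:**
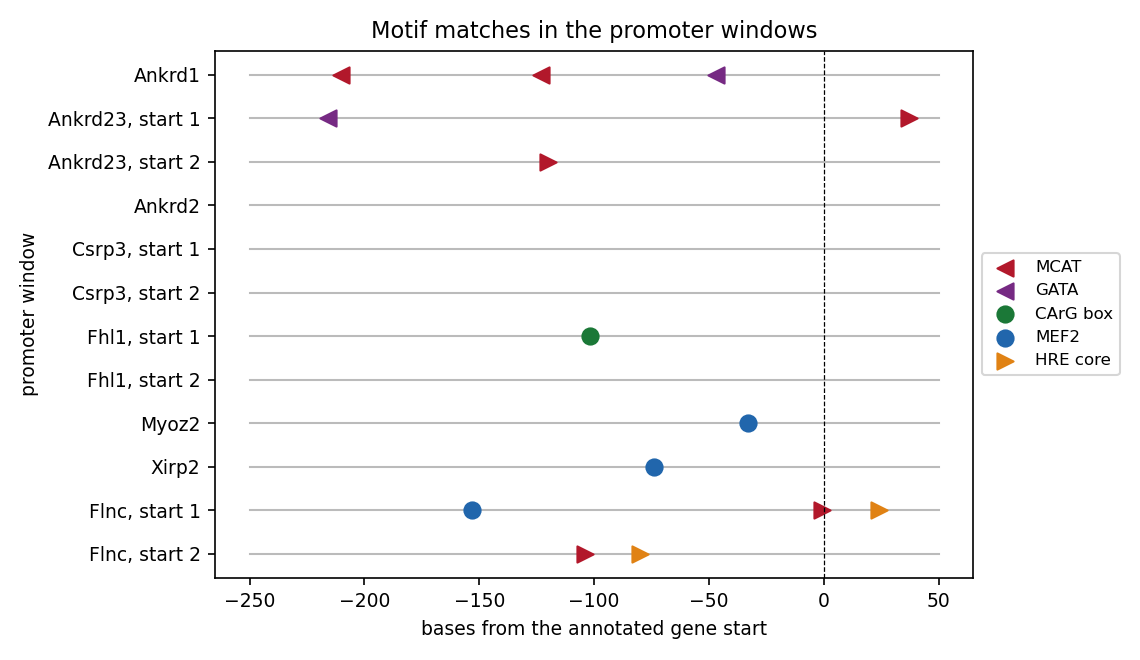
Matches to 5 motifs in the 12 promoter windows of 8 genes, plotted by distance in bases from the annotated gene start; each grey line is a 300-base window, right- and left-pointing triangles are matches on the gene's own and the opposite strand, and circles are motifs that read the same on both. MCAT matches sit in Ankrd1, Ankrd23 and Flnc, and matches to the loose MEF2 pattern in Myoz2, Xirp2 and Flnc. The Flnc windows overlap, so their MCAT and hypoxia response element matches are the same sites.

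The muscle ankyrin repeat proteins, which bind the elastic N2A region of titin and shuttle to the nucleus, were higher in Egln1Tie2Cre than in floxed where they were abundant, and at the floor where they were not. Ankrd1 (ENSMUSG00000024803; GRCm38 chromosome 19, 36111961 to 36120099, minus strand, 8 exon blocks) was at 754 FPKM in the Egln1/Hif2a-labelled library, 1688 FPKM in Egln1Tie2Cre and 485 FPKM in the floxed library. It was thus 3.48-fold higher in Egln1Tie2Cre than in floxed, and 1.55-fold higher in the Egln1/Hif2a-labelled library than in floxed. By abundance it ranked 104 in the Egln1/Hif2a-labelled library, 45 in Egln1Tie2Cre and 142 in the floxed library, among 15232 to 15370 genes with a value. Set against titin itself, there were 10.004 FPKM of Ankrd1 for each FPKM of Ttn in the Egln1/Hif2a-labelled library, 20.1 in Egln1Tie2Cre and 4.95 in the floxed library. Ttn was at 75.4 FPKM in the Egln1/Hif2a-labelled library, 83.9 FPKM in Egln1Tie2Cre and 97.97 FPKM in the floxed library.

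Ankrd23 (ENSMUSG00000067653; chromosome 1, 36530188 to 36536883, minus strand), a relative of Ankrd1 abundant in heart and skeletal muscle, followed the same order at a lower level. Its FPKM was 195 in the Egln1/Hif2a-labelled library, 311 in Egln1Tie2Cre and 106 in the floxed library, which is 2.93-fold higher in Egln1Tie2Cre than in floxed and 1.83-fold higher in the Egln1/Hif2a-labelled library than in floxed. Ankrd1 exceeded Ankrd23 by 3.87-fold in the Egln1/Hif2a-labelled library, 5.43-fold in Egln1Tie2Cre and 4.57-fold in the floxed library, so the proportion of the pair moved less than either gene. The Ankrd23 value is uncertain, since 2109 of its 2697 exonic bases also belong to the annotated gene Gm42417 on the same strand. Ankrd39, its neighbour, was at 3.88 FPKM in the Egln1/Hif2a-labelled library, 3.45 FPKM in Egln1Tie2Cre and 2.83 FPKM in the floxed library.

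Ankrd2 (ENSMUSG00000025172; chromosome 19, 42036000 to 42045110, plus strand), the family member typical of slow skeletal muscle, was near the floor in every library. It had 0.350 FPKM in the Egln1/Hif2a-labelled library, 0.307 FPKM in Egln1Tie2Cre and 0.831 FPKM in the floxed library, below the mean of 1 FPKM required of a pair for any count given here. The order was the opposite of that of Ankrd1 and Ankrd23, but at this level the ratio is not a result. The whole ankyrin repeat subset thus summed to 949.6 FPKM in the Egln1/Hif2a-labelled library, 1999.5 FPKM in Egln1Tie2Cre and 592 FPKM in the floxed library, nearly all of it Ankrd1 and Ankrd23.

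**Figure D2:**
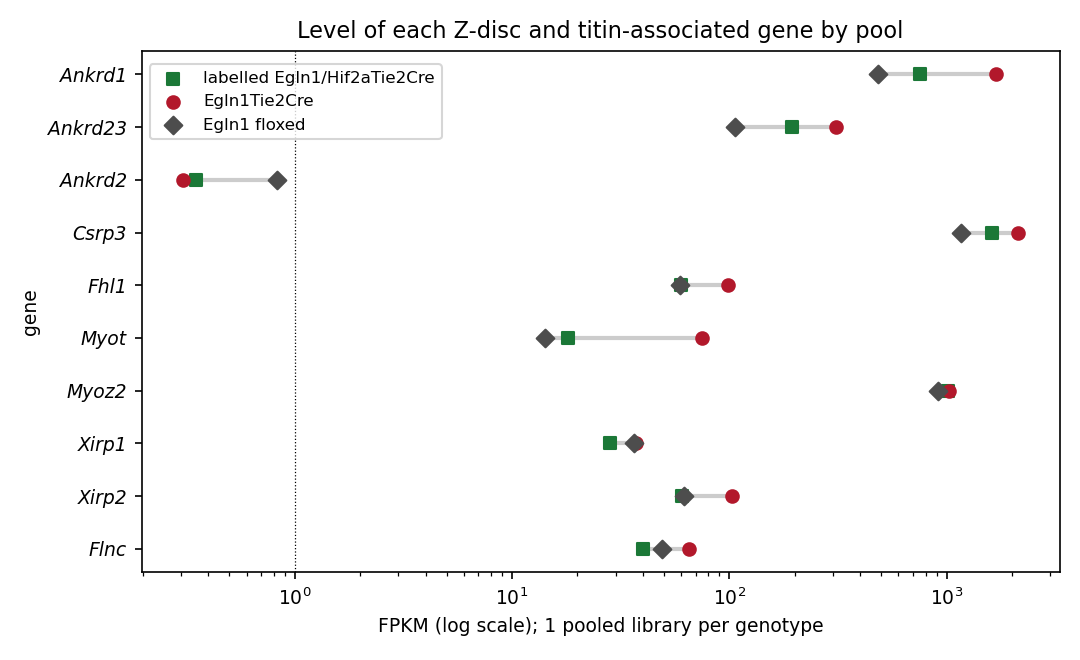
FPKM (log axis) of the 10 genes in the 3 pooled libraries, 1 point per library, with a grey bar from the lowest to the highest value and a dotted line at 1 FPKM. Levels span from 0.307 FPKM (Ankrd2 in Egln1Tie2Cre) to 2131 FPKM (Csrp3 in Egln1Tie2Cre), and the Egln1Tie2Cre point is the highest for every gene except Ankrd2.

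Among the LIM proteins, Csrp3 was the most abundant of the 10 genes in every library. Csrp3 (ENSMUSG00000030470; chromosome 7, 48830398 to 48848033, minus strand) encodes muscle LIM protein, a Z-disc protein without which mice develop dilated cardiomyopathy. Its level was 1621 FPKM in the Egln1/Hif2a-labelled library, 2131 FPKM in Egln1Tie2Cre and 1159 FPKM in the floxed library. The Egln1Tie2Cre library was 1.84-fold above floxed and the Egln1/Hif2a-labelled library 1.40-fold above floxed, both short of 2-fold. By abundance it ranked 52 in the Egln1/Hif2a-labelled library, 34 in Egln1Tie2Cre and 58 in the floxed library, among the most abundant transcripts of the ventricle in each.

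Fhl1 (ENSMUSG00000023092; chromosome X, 56731787 to 56793346, plus strand) encodes a LIM-only protein that binds the N2B part of titin and takes part in stretch signalling. It was at 60.1 FPKM in the Egln1/Hif2a-labelled library, 98.6 FPKM in Egln1Tie2Cre and 59.6 FPKM in the floxed library. Only the Egln1Tie2Cre library stood apart, 1.66-fold above floxed, whereas the other comparison gave 1.01-fold, a ratio that was below 1 after rescaling to a common FPKM sum or centring on cardiomyocyte markers. Its cardiac relative Fhl2, which also binds titin, was far more abundant and showed no such order, at 1021 FPKM in the Egln1/Hif2a-labelled library, 873 FPKM in Egln1Tie2Cre and 979 FPKM in the floxed library. Fhl1 transcripts per Fhl2 transcript on the FPKM scale were therefore 0.0588 in the Egln1/Hif2a-labelled library, 0.113 in Egln1Tie2Cre and 0.0608 in the floxed library.

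The actinin-binding pair Myot and Myoz2 gave the widest and nearly the narrowest difference of the set. Myot (ENSMUSG00000024471; chromosome 18, 44334074 to 44355724, plus strand) encodes myotilin, which joins alpha-actinin, filamin C and actin at the Z-disc and is mutated in human myofibrillar myopathy. It was at 18.1 FPKM in the Egln1/Hif2a-labelled library, 74.7 FPKM in Egln1Tie2Cre and 14.1 FPKM in the floxed library. The Egln1Tie2Cre library was 5.28-fold above floxed, while the Egln1/Hif2a-labelled library was 1.28-fold above floxed and 4.13-fold below Egln1Tie2Cre. By abundance Myot ranked 3381 in the Egln1/Hif2a-labelled library, 914 in Egln1Tie2Cre and 4080 in the floxed library. It is the only one of the 10 genes below a q-value of 0.05 in the authors' deposited tables, at 0.0112 for Egln1Tie2Cre against floxed and 0.0301 for the Egln1/Hif2a-labelled against the Egln1Tie2Cre library. The next lowest in the authors' deposited table were Ankrd23 at 0.1322 and Ankrd1 at 0.2839, both for Egln1Tie2Cre against floxed, and the remaining q-values of the 10 genes in the authors' deposited tables were all 0.9996. Those q-values compare single libraries, not genotypes.

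Myoz2 (ENSMUSG00000028116; chromosome 3, 123006206 to 123035015, minus strand) encodes calsarcin-1, which tethers the phosphatase calcineurin to alpha-actinin and restrains it. Its level was 1020.1 FPKM in the Egln1/Hif2a-labelled library, 1026 FPKM in Egln1Tie2Cre and 915 FPKM in the floxed library, a ratio of 1.12 over floxed for both. That small excess over floxed in the Egln1/Hif2a-labelled library turned to a small deficit after rescaling to a common FPKM sum. On the FPKM scale Ankrd1 stood at 0.739 of Myoz2 in the Egln1/Hif2a-labelled library, 1.65 times Myoz2 in Egln1Tie2Cre and 0.530 of Myoz2 in the floxed library. Ankrd1 was therefore above Myoz2 in the Egln1Tie2Cre library and below it in the others.

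Filamin C and its Xin partners were at 103 FPKM or less in every library. Flnc (ENSMUSG00000068699; chromosome 6, 29433256 to 29461883, plus strand, 48 exon blocks) encodes the muscle filamin that cross-links actin at the Z-disc. It was at 39.9 FPKM in the Egln1/Hif2a-labelled library, 65.5 FPKM in Egln1Tie2Cre and 49.0 FPKM in the floxed library. The Egln1Tie2Cre library was 1.34-fold above floxed and the Egln1/Hif2a-labelled library was 1.23-fold below floxed, so floxed lay between the others. The ubiquitous filamin gene Flna was 58.5 FPKM in the Egln1/Hif2a-labelled library, 52.2 FPKM in Egln1Tie2Cre and 52.9 FPKM in the floxed library. The ratio of Flnc to Flna was thus 0.682 in the Egln1/Hif2a-labelled library, 1.25 in Egln1Tie2Cre and 0.925 in the floxed library.

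Xirp1 (ENSMUSG00000079243; chromosome 9, 120013755 to 120023598, minus strand) encodes Xin, an actin-binding repeat protein of the intercalated disc. It was at 28.4 FPKM in the Egln1/Hif2a-labelled library, 37.2 FPKM in Egln1Tie2Cre and 36.3 FPKM in the floxed library. Egln1Tie2Cre was 1.02-fold above floxed, a difference whose sign changed after rescaling or centring on cardiomyocyte markers, and the Egln1/Hif2a-labelled library was 1.28-fold below floxed. Xirp2 (ENSMUSG00000027022; chromosome 2, 67446002 to 67526614, plus strand), the related gene for the second Xin-repeat protein, was at 60.3 FPKM in the Egln1/Hif2a-labelled library, 103 FPKM in Egln1Tie2Cre and 61.8 FPKM in the floxed library. Xirp2 was 1.67-fold above floxed in Egln1Tie2Cre and 1.02-fold below floxed in the Egln1/Hif2a-labelled library, there with a sign that changed after centring by exonic length. Xirp2 was 2.12 times Xirp1 in the Egln1/Hif2a-labelled library, 2.78 times Xirp1 in Egln1Tie2Cre and 1.70 times Xirp1 in the floxed library, so these related genes did not keep a fixed proportion. An antisense gene, Gm13601, shares 168 exonic bases with Xirp2 and was at 1.22 FPKM in the Egln1/Hif2a-labelled library, 2.73 FPKM in Egln1Tie2Cre and 2.53 FPKM in the floxed library. Whether counting used strand is not given in the sources used here.

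Taken as a set, 9 of the 10 genes passed the minimum of 1 FPKM as the mean of a pair. On the log2 ratio of FPKM + 1, Egln1Tie2Cre over floxed, all 9 were above 0 (Xirp1 was below it after rescaling or centring on cardiomyocyte markers) and 3 were at least 2-fold higher (Myot, Ankrd1 and Ankrd23), with 0 at least 2-fold lower. The background over all 11978 genes kept was 3.93% at least 2-fold higher and 3.84% lower, or 2.00% higher and 3.15% lower without predicted, pseudogene, mitochondrial and ribosomal symbols. At 1.5-fold, 6 of the 9 were higher and 0 lower, beside 9.46% higher and 8.73% lower over all genes. The median of the 9 was 0.73, beside 0.02 over all genes. Because the list was chosen on these libraries, nothing is read from those counts. For the Egln1/Hif2a-labelled library over floxed, 6 of 9 were above 0 (Myoz2 and Fhl1 not after rescaling, and Xirp2 joining them after centring by length) and 0 were at least 2-fold higher or lower, where the background was 0.538% higher and 0.437% lower (0.405% and 0.317% without those symbols). As genes, that is 64 higher and 52 lower, which became 39 and 98 after rescaling to one FPKM sum and 54 and 79 after centring on cardiomyocyte markers. At 1.5-fold, 2 of the 9 (Ankrd1 and Ankrd23) were higher and 0 lower, beside 4.42% higher and 3.28% lower over all genes. The median of the 9 was 0.16, beside -0.00 over all genes. For the Egln1/Hif2a-labelled library over Egln1Tie2Cre, all 9 were below 0 (Myoz2 not after centring on all genes or on cardiomyocyte markers) and 2 (Myot and Ankrd1) were at least 2-fold lower, with a background of 4.08% lower and 4.31% higher (2.06% and 3.61% without those symbols). At 1.5-fold, 6 of the 9 were lower and 0 higher, beside 9.64% lower and 9.67% higher over all genes. The median there was -0.70, beside -0.02 over all genes. These comparisons share libraries, so they are not independent of each other.

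**Figure D3:**
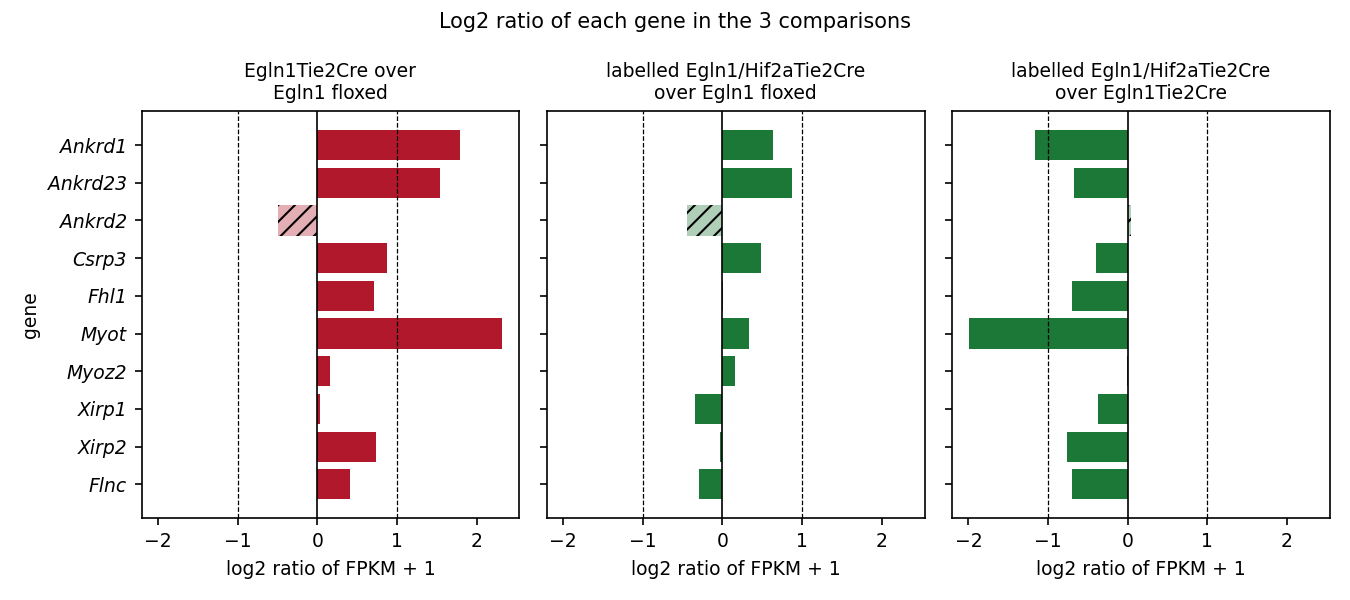
Log2 ratio of FPKM + 1 for each of the 10 genes in the 3 comparisons named above the panels; the colour follows the library on top of the ratio, dashed lines mark 2-fold, and hatched bars are Ankrd2, below the level filter. In the left panel 9 bars point right, from 0.03 (Xirp1) to 2.32 (Myot); in the right panel the same 9 point left, from -0.01 (Myoz2) to -1.99 (Myot), where the signs of Xirp1 on the left and Myoz2 on the right depend on the scaling.

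The composition of the set differed between libraries as well as its total. The 10 genes summed to 3798 FPKM in the Egln1/Hif2a-labelled library, 5536 FPKM in Egln1Tie2Cre and 2886 FPKM in the floxed library. Csrp3 made up 42.7% of that sum in the Egln1/Hif2a-labelled library, 38.5% in Egln1Tie2Cre and 40.1% in the floxed library. Ankrd1 made up 19.9% in the Egln1/Hif2a-labelled library, 30.5% in Egln1Tie2Cre and 16.8% in the floxed library, while Myoz2 made up 26.9% in the Egln1/Hif2a-labelled library, 18.5% in Egln1Tie2Cre and 31.7% in the floxed library. Within the set Myot was at place 9 in the Egln1/Hif2a-labelled library, at place 7 in Egln1Tie2Cre, above Flnc and Xirp1, and at place 9 in the floxed library.

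**Figure D4:**
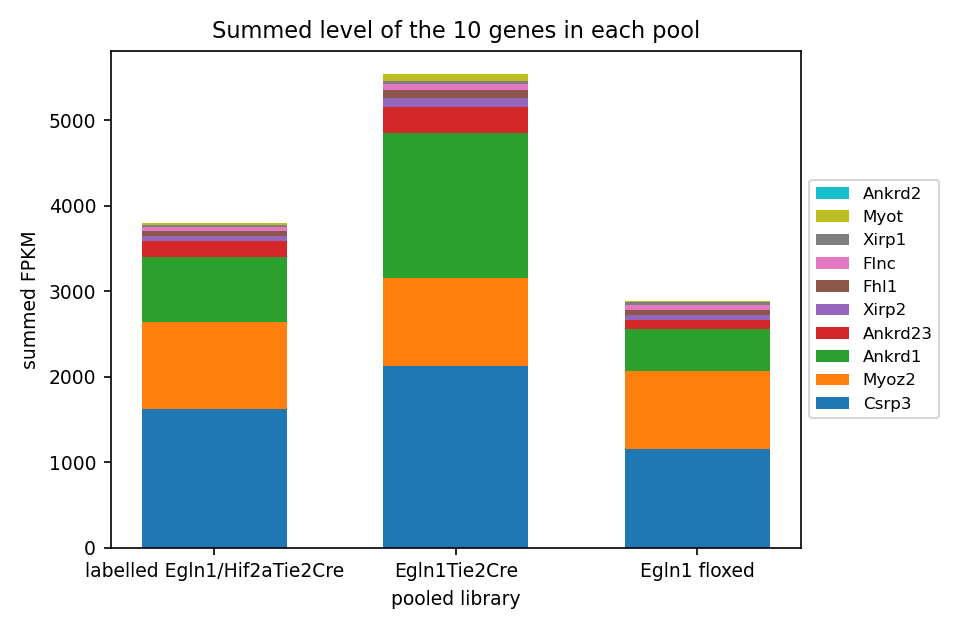
Summed FPKM of the 10 genes in each pooled library, stacked by gene, 1 library per bar. The sums are 3798 FPKM in the library labelled Egln1/Hif2aTie2Cre, 5536 FPKM in Egln1Tie2Cre and 2886 FPKM in floxed; the Ankrd1 layer is 754 FPKM in the library labelled Egln1/Hif2aTie2Cre, 1688 FPKM in Egln1Tie2Cre and 485 FPKM in floxed, and the Myoz2 layer stays between 915 and 1026 FPKM.

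Alpha-actinin, the main cross-linker of the Z-disc, was used as one denominator. Actn2 was at 557 FPKM in the Egln1/Hif2a-labelled library, 1046 FPKM in Egln1Tie2Cre and 710.4 FPKM in the floxed library, that is, 1.47-fold above floxed in Egln1Tie2Cre. Per FPKM of Actn2, Ankrd1 was 1.35 in the Egln1/Hif2a-labelled library, 1.61 in Egln1Tie2Cre and 0.683 in the floxed library, and Csrp3 was 2.91 in the Egln1/Hif2a-labelled library, 2.04 in Egln1Tie2Cre and 1.63 in the floxed library. Myot per Actn2 was 0.0324 in the Egln1/Hif2a-labelled library, 0.0714 in Egln1Tie2Cre and 0.0199 in the floxed library. For Flnc, the value per Actn2 was 0.0717 in the Egln1/Hif2a-labelled library, 0.0626 in Egln1Tie2Cre and 0.0689 in the floxed library, so on this scale Egln1Tie2Cre was the lowest. Actn2 itself was 1.88-fold lower in the Egln1/Hif2a-labelled library than in Egln1Tie2Cre. Per Actn2, only Ankrd1 and Myot of the kept genes were lower in the former than in the latter. Besides Csrp3 and Flnc, Ankrd23 (0.350 against 0.297) and Myoz2 (1.83 against 0.981) were higher there. So were Fhl1 (0.108 against 0.0943), Xirp2 (0.108 against 0.0987) and Xirp1 (0.0510 against 0.0356).

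The other genes of the Z-disc and its surroundings were followed in 6 lists, of which the last holds muscle transcription regulators. In the Z-disc core list, 18 of 21 genes were kept for Egln1Tie2Cre over floxed, of which 15 were above 0, 1 was called higher at 2-fold and 1 called lower. Over all genes, 51.9% were above 0, 3.93% were called higher and 3.84% called lower, so the list's calls were near the background. The list's median log2 ratio was 0.24. Pdlim3, an actinin-associated PDZ-LIM protein, was at 7.03 FPKM in the Egln1/Hif2a-labelled library, 14.7 FPKM in Egln1Tie2Cre and 6.37 FPKM in the floxed library. Capzb, a subunit of the protein that caps actin at the Z-disc, was at 135 FPKM in the Egln1/Hif2a-labelled library, 203 FPKM in Egln1Tie2Cre and 133 FPKM in the floxed library. Capza1, another capping subunit, was at 11.1 FPKM in the Egln1/Hif2a-labelled library, 3.18 FPKM in Egln1Tie2Cre and 9.50 FPKM in the floxed library, but has near-identical copies in 3 other genes and is uncertain.

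Among titin and M-band genes, 13 of 14 were kept, with 1 called higher at 2-fold in Egln1Tie2Cre and 0 called lower, beside 3.93% and 3.84% over all genes. Their median log2 ratio was 0.14. The gene called higher was Myom2, which encodes the M-protein that ties thick filaments together, at 255 FPKM in the Egln1/Hif2a-labelled library, 747 FPKM in Egln1Tie2Cre and 329 FPKM in the floxed library; it shares sequence with the annotated gene Gm45501. Mybpc2, the fast skeletal myosin-binding protein C, was at 10.98 FPKM in the Egln1/Hif2a-labelled library, 20.3 FPKM in Egln1Tie2Cre and 10.2 FPKM in the floxed library. Lmod3, which nucleates actin at thin-filament ends, was at 56.5 FPKM in the Egln1/Hif2a-labelled library, 35.3 FPKM in Egln1Tie2Cre and 60.9 FPKM in the floxed library.

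Paralogues of Csrp3, Fhl1 and Flnc lay nearer to even. Of 14 LIM and filamin genes 12 were kept, and 0 were even 1.5-fold higher or lower in Egln1Tie2Cre than in floxed, beside a background of 9.46% higher and 8.73% lower at that fold. Csrp2 was at 17.7 FPKM in the Egln1/Hif2a-labelled library, 20.03 FPKM in Egln1Tie2Cre and 15.2 FPKM in the floxed library. Fhl3, which has a copy elsewhere, was at 4.03 FPKM in the Egln1/Hif2a-labelled library, 4.62 FPKM in Egln1Tie2Cre and 6.21 FPKM in the floxed library.

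Intercalated disc and costamere genes, where the Xin proteins reside, were all kept (29 of 29) and had a median of 0.13 for Egln1Tie2Cre over floxed, with 4 at least 1.5-fold higher and 0 lower, beside 9.46% higher and 8.73% lower over all genes. Sgca, alpha-sarcoglycan of the membrane complex, was at 78.5 FPKM in the Egln1/Hif2a-labelled library, 172 FPKM in Egln1Tie2Cre and 97.2 FPKM in the floxed library. For the Egln1/Hif2a-labelled library over floxed the list median was -0.21, with 4 of 29 above 0 and 6 at least 1.5-fold lower, beside 49.4% above 0 and 3.28% lower at that fold over all genes. Xirp1 and Flnc shared that direction with values already given. Ratios in that comparison also went with transcript length. Protein-coding genes in the shortest of 10 length bins had a median log2 ratio of 0.25 and those in the longest -0.15. The part of length in this list was not tested. Ilk, integrin-linked kinase, was at 78.5 FPKM in the Egln1/Hif2a-labelled library, 93.0 FPKM in Egln1Tie2Cre and 53.7 FPKM in the floxed library, but shares exonic bases with the coding genes Taf10 and Rrp8. Enah, an actin regulator of the intercalated disc, was at 23.5 FPKM in the Egln1/Hif2a-labelled library, 40.5 FPKM in Egln1Tie2Cre and 24.2 FPKM in the floxed library, and has stretches of like sequence in 113 other genes. Both values are uncertain.

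Chaperones and ubiquitin ligases, which clear damaged filamin and titin partners, were counted next. Of 22 kept, 6 were above 0 in Egln1Tie2Cre over floxed, with 3 called lower at 2-fold and 0 called higher, beside 51.9% above 0, 3.84% lower and 3.93% higher over all genes. The median log2 ratio was -0.12. Those 3, Hspa8, Dnajb6 and Hspb1, all have near-identical copies in other genes, so their values are uncertain. Hspa8, the constitutive Hsp70 chaperone, was listed at 570.2 FPKM in the Egln1/Hif2a-labelled library, 109 FPKM in Egln1Tie2Cre and 392 FPKM in the floxed library. For Dnajb6, a co-chaperone, the values were 36.7 FPKM in the Egln1/Hif2a-labelled library, 9.72 FPKM in Egln1Tie2Cre and 37.2 FPKM in the floxed library. Hspb1, a small heat shock protein, was listed at 246 FPKM in the Egln1/Hif2a-labelled library, 63.5 FPKM in Egln1Tie2Cre and 165 FPKM in the floxed library.

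Muscle transcription regulators had a median of -0.02 over 19 kept genes for Egln1Tie2Cre over floxed. Of these, 0 were called higher or lower at 2-fold, beside 3.93% higher and 3.84% lower over all genes. The list's calls were thus near the background. Tead1, the factor that reads the CATTCC motif shown above, was at 20.9 FPKM in the Egln1/Hif2a-labelled library, 21.7 FPKM in Egln1Tie2Cre and 32.1 FPKM in the floxed library. Tbx20, a T-box factor of the adult heart, was at 13.9 FPKM in the Egln1/Hif2a-labelled library, 20.5 FPKM in Egln1Tie2Cre and 13.6 FPKM in the floxed library. Hand2, a basic helix-loop-helix factor that shares exonic sequence with a non-coding neighbour, was at 21.5 FPKM in the Egln1/Hif2a-labelled library, 32.97 FPKM in Egln1Tie2Cre and 18.9 FPKM in the floxed library.

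**Figure D5:**
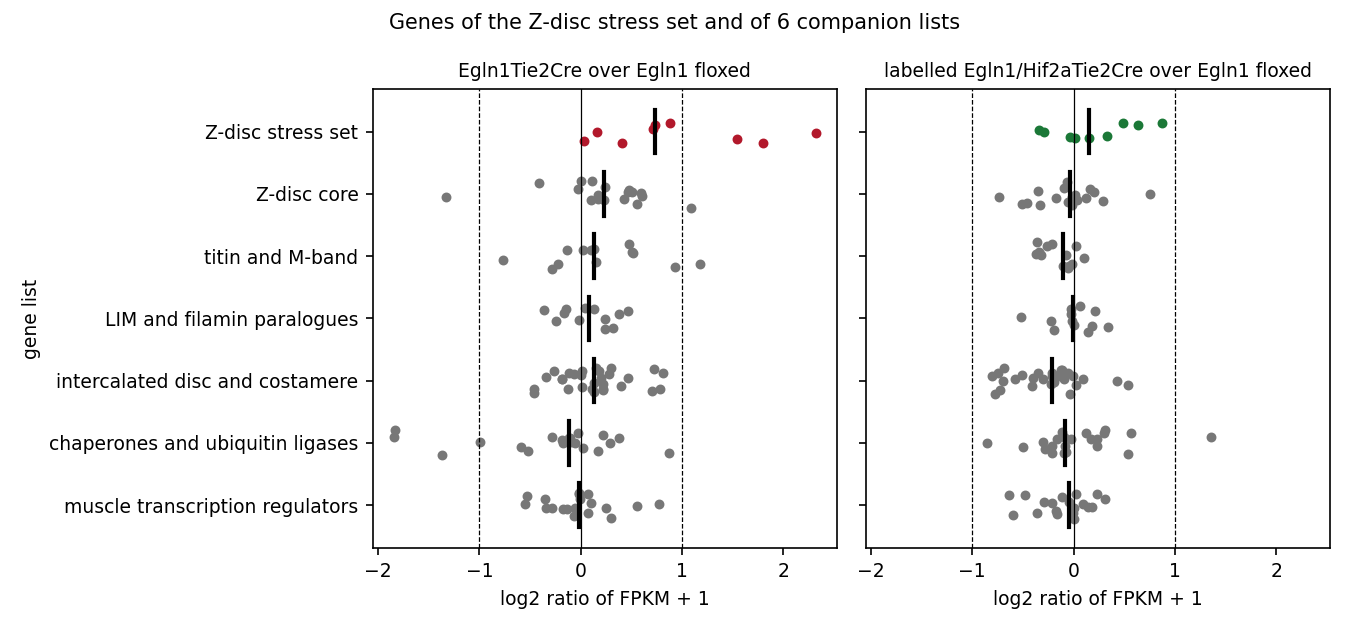
Log2 ratio of FPKM + 1 for every kept gene of the Z-disc stress set (coloured) and of 6 companion lists (grey), 1 point per gene, for Egln1Tie2Cre over floxed (left) and for the library labelled Egln1/Hif2aTie2Cre over floxed (right); black bars are list medians and dashed lines mark 2-fold. On the left the set's median is 0.73 and those of the companion lists run from -0.12 to 0.24; on the right the set's median is 0.16 and those of the lists run from -0.21 to -0.01.

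Load markers outside the set crossed it as follows. Nppb, the B-type natriuretic peptide gene, stood at 568 FPKM in the Egln1/Hif2a-labelled library, 576 FPKM in Egln1Tie2Cre and 157 FPKM in the floxed library, so that the Egln1/Hif2a-labelled library and Egln1Tie2Cre differed by 1.01-fold. Nppa, atrial natriuretic peptide, was at 256 FPKM in the Egln1/Hif2a-labelled library, 1858 FPKM in Egln1Tie2Cre and 160.2 FPKM in the floxed library. Ankrd1, Ankrd23, Csrp3 and Myot had that order. So did Myoz2 and Fhl1, but their excess over floxed in the Egln1/Hif2a-labelled library was lost after rescaling to a common FPKM sum. Nppa shares exonic bases with the antisense gene Gm13054. Myh7, the slow myosin heavy chain, was listed at 25.0 FPKM in the Egln1/Hif2a-labelled library, 330 FPKM in Egln1Tie2Cre and 89.95 FPKM in the floxed library, uncertain for its likeness to Myh6 and its antisense neighbours.

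Markers of other cell types were read beside these values, and some had the order of the set and some did not. Summed over 6 of 7 atrial markers (Bmp10 had no listed value), the level was 364 FPKM in the Egln1/Hif2a-labelled library, 2003 FPKM in Egln1Tie2Cre and 236 FPKM in the floxed library, with Nppa the largest part. Without Nppa the sum was 108 FPKM in the Egln1/Hif2a-labelled library, 145 FPKM in Egln1Tie2Cre and 75.5 FPKM in the floxed library. Past 2-fold, 4 of the 6 lay higher in Egln1Tie2Cre than in floxed and 1 lay lower, beside 3.93% higher and 3.84% lower over all genes. Their part in the values of Ankrd1, Ankrd23, Csrp3 and Myot was not tested. Of 14 skeletal muscle markers, 8 had a value in all libraries, while the adult fast myosins Myh1, Myh2 and Myh4 and also Actn3, Pvalb and Ryr1 had no listed value. The 8 summed to 74.5 FPKM in the Egln1/Hif2a-labelled library, 39.9 FPKM in Egln1Tie2Cre and 48.3 FPKM in the floxed library. Myl1, the largest of them, had that order, at 46.9 FPKM in the Egln1/Hif2a-labelled library, 9.72 FPKM in Egln1Tie2Cre and 26.1 FPKM in the floxed library. Casq1 had it too, at 12.1 FPKM in the Egln1/Hif2a-labelled library, 5.59 FPKM in Egln1Tie2Cre and 8.39 FPKM in the floxed library. Without Myl1 the other 7 summed to 27.6 FPKM in the Egln1/Hif2a-labelled library, 30.2 FPKM in Egln1Tie2Cre and 22.2 FPKM in the floxed library. That sum includes Mybpc2, which was highest in Egln1Tie2Cre, as given above. The part of skeletal muscle RNA in the values of Myot and Ankrd23 was not tested. The 10 endothelial markers, of the cell type the Cre is aimed at, summed to 1935 FPKM in the Egln1/Hif2a-labelled library, 2120 FPKM in Egln1Tie2Cre and 1583 FPKM in the floxed library, the order of Ankrd1. Their median log2 ratio was 0.30 for Egln1Tie2Cre over floxed, with 8 of 10 above 0 beside 51.9% over all genes. Fabp4 was most of that sum, and the other 9 came to 491 FPKM in the Egln1/Hif2a-labelled library, 441 FPKM in Egln1Tie2Cre and 381 FPKM in the floxed library. The part of endothelial RNA in the values of the set was not tested. Summed levels of 9 fibroblast markers were 965 FPKM in the Egln1/Hif2a-labelled library, 1001 FPKM in Egln1Tie2Cre and 856 FPKM in the floxed library. Without Gsn, the largest, they were 465 FPKM in the Egln1/Hif2a-labelled library, 431 FPKM in Egln1Tie2Cre and 403 FPKM in the floxed library. For 7 smooth muscle markers the sums were 228 FPKM in the Egln1/Hif2a-labelled library, 168 FPKM in Egln1Tie2Cre and 202 FPKM in the floxed library, lowest in Egln1Tie2Cre. The 13 cardiomyocyte markers had a median log2 ratio of 0.11 for Egln1Tie2Cre over floxed. The 3 called genes of the set had log2 ratios from 1.54 to 2.32, so subtracting 0.11 could not undo their calls. The part of cardiomyocyte RNA in the values of the set was not tested. Transcript length also went with the ratios: protein-coding genes in the shortest of 10 length bins had a median log2 ratio of 0.25 and those in the longest -0.15 for the Egln1/Hif2a-labelled library over floxed, against 0.03 and -0.00 for Egln1Tie2Cre over floxed. The longest genes of the set, Xirp2 with 11979 exonic bases, Flnc with 9402 and Xirp1 with 5839, are the 3 that lay below 0 for the Egln1/Hif2a-labelled library over floxed. After centring by exonic length, Flnc and Xirp1 remained below 0 in that comparison and Xirp2 did not.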

How the data were processed

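Left ventricular RNA of 3 genotypes was sequenced as 1 pooled library of 3 mice each, and the authors deposited 1 table for each pair. TopHat2 and Cuffdiff are named in the submitters' processing notes; their versions, the build and the annotation were not given in the sources used. The authors' FPKM per gene and library, a fold per pair and a q-value comparing both libraries stand in each table, per the file headers. Columns were assigned by the sample titles in each table's name; a library's FPKM recurred between its tables (14489 of 14489 genes for Egln1Tie2Cre). FPKM keeps no read numbers, so depth and counting error are unknown.

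Folds are plain FPKM ratios. Calls use the log2 ratio of FPKM + 1, which understates differences at low FPKM, at 2-fold, where the pair's mean FPKM reached 1. No test was possible, and no p-value was computed. The ratio and motif steps were tested on simulated data. A comparison of the protein sequences, planned at first, was not made. Gene positions and overlaps are from GENCODE M21 on GRCm38, in which 15299 of 15503 gene IDs were found. Near-identical copies were transcripts of other genes with at least 90% identity over at least 200 bases in blastn 2.17.0. Members of the gene set and lists were chosen with earlier results of these data known. The 10 genes are all described; of each companion list the 3 genes with the largest absolute log2 ratio in Egln1Tie2Cre over floxed, where the pair's mean FPKM reached 5, are named with Nppa, Nppb, Myh7, Egln1 and Epas1, and Ttn, Actn2, Flna, Fhl2, Ankrd39 and Gm13601 were named as partners of the set after their values were seen. One gene that this rule names is not reported here. Alternatives were a pseudocount of 0.1, other filters, 1.5-fold, several scalings, gene classes and, chosen after seeing the data, centring by exonic length and protein-coding genes only.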

Additional observations from a re-analysis of the deposited data

How the results depend on the processing

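No paired analysis was possible because each genotype has 1 library, and for the same reason no library could be left out. Under 11 alternatives the number of genes of the set at least 2-fold apart stayed at 3 higher for Egln1Tie2Cre over floxed, 0 for the Egln1/Hif2a-labelled library over floxed and 2 lower for the Egln1/Hif2a-labelled library over Egln1Tie2Cre, except that at 1.5-fold these were 6 higher, 2 higher and 6 lower. Some alternatives could not change these counts. Restricting gene classes, requiring a mean FPKM of at least 5 or taking each library from its other deposited table left the kept genes and their ratios as they were. Dropping the filter could add only Ankrd2. The pseudocount, the scalings and the centrings moved the ratios too little to take any gene of the set across 2-fold. Only the fold could therefore change the counts. The log2 ratio of Myot in Egln1Tie2Cre over floxed ranged from 2.21 to 2.39, that of Ankrd1 from 1.68 to 1.80 and that of Ankrd23 from 1.43 to 1.55. Without the filter on low values Ankrd2 entered at -0.49, -0.44 and 0.05 in these 3 comparisons. No called value of the set changed sign. Rescaling to one FPKM sum shifted all log2 ratios of the Egln1/Hif2a-labelled library over floxed by -0.18, taking the median of the set there to -0.02; centring on cardiomyocyte markers left it at 0.07.

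Counts over all genes moved more. For Egln1Tie2Cre over floxed, 471 genes higher became 226 without predicted, pseudogene, mitochondrial or ribosomal symbols, 221 among protein-coding genes and 312 at a mean FPKM of at least 5; at 1.5-fold there were 1133 higher and 1046 lower, against 460 lower at 2-fold. For the Egln1/Hif2a-labelled library over floxed, 64 higher and 52 lower became 153 and 153 with a pseudocount of 0.1, 34 and 31 at a mean FPKM of at least 5, 39 and 98 after rescaling and 525 and 390 at 1.5-fold, and centring on cardiomyocyte markers gave 54 higher and 79 lower. For the Egln1/Hif2a-labelled library over Egln1Tie2Cre, 489 lower became 320 at a mean FPKM of at least 5, 233 without those symbols and 230 among protein-coding genes, and 1.5-fold gave 1160 higher and 1157 lower, against 517 higher at 2-fold. What depth limits cannot be stated, as it is unknown; Ankrd2 is the gene of the set nearest the floor.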
